A study of Mus musculus with 6 samples.

Results

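The genes described here are 7 classical markers of the disease-associated state of microglia, chosen by symbol: Itgax, Clec7a, Cst7, Spp1, Cd9, Lilrb4a and Cd63. Of the 7 symbols, 6 matched a row among the 32285 genes of the single-nucleus matrices, and Clec7a was not analysed here. The working label for the set was surface genes, but it covers several places in the cell. Itgax (CD11c, an integrin alpha chain) and Lilrb4a (an inhibitory receptor of the leukocyte immunoglobulin-like family) are surface receptors. Cd9 is a tetraspanin of the plasma membrane, and Cd63 is a tetraspanin found mostly in late endosomes and lysosomes. Cst7 (cystatin F) is a lysosomal and secreted inhibitor of cathepsins, and Spp1 (osteopontin) is a secreted ligand of integrins and of CD44, so neither is a surface protein.

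Microglia are the resident macrophages of the brain. Around amyloid plaques they lower homeostatic genes such as P2ry12 and raise a programme of lipid handling, lysosomal and adhesion genes, whose later stage depends on the receptor TREM2. PLCG2, the phospholipase C studied in this series, acts downstream of TREM2 and of other immune receptors. Nuclei hold newly made and incompletely processed transcripts, so a gene that is prominent in whole cells can be sparse in them.

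The libraries came from the NeuN-negative nuclei of frozen cortex of 7.5-month-old mice in 3 groups of 2, with replicate numbers 2 and 3 in each. The groups were 5xFAD, 5xFAD;M28L and 5xFAD;P522R, written below as 5xFAD, 5xFAD-M28L and 5xFAD-P522R. All 3 carry 5xFAD, an amyloid model whose transgenes are driven in neurons by the Thy1 promoter. M28L and P522R are variants of PLCG2 named by the strain labels, and zygosity is not given there. A group without 5xFAD was not analysed here, so no value below is a change caused by amyloid. Both sexes were mixed in every library, and the labels do not say whether replicates 2 and 3 are different animals. The p-values therefore measure the spread between libraries, which may be technical.

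Libraries held 9269 to 13783 barcodes and 53326947 to 72288942 UMIs (unique molecular identifiers, which count single captured RNA molecules). After filters and removal of called doublets, 60085 nuclei remained, of which 8458 were microglia-like (936 to 1784 per library, median 2750 to 3816 UMIs per nucleus). Pairs of libraries shared 20 to 71 cell barcodes. The microglial label was given from 15 markers, so their levels are not a separate check of it. None of the 15 was at 0 in any library, and their summed level was 8924 to 12336 CPM (a gene's share of the summed UMIs, on the usual scale). A pair of libraries stood apart. In 5xFAD replicate 2, 91.0% of the microglia-like nuclei with Xist and no Y-linked transcript lay in the homeostatic cluster and 2 nuclei in the disease-associated one, so the contrasts with 5xFAD over all microglia-like nuclei are also given without it. In 5xFAD-P522R replicate 3, oligodendrocyte markers summed to 4240 CPM in microglia-like nuclei, against 1895 in 5xFAD-P522R replicate 2 and 966 to 1390 in the 4 libraries of the other groups.

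The 6 matched genes lie on 5 chromosomes of GRCm38: Itgax at chr7:128129547-128150657 on the plus strand, Cst7 at chr2:150570415-150578944 (plus), Spp1 at chr5:104435118-104441050 (plus), Cd9 at chr6:125460266-125494791 (minus), Lilrb4a at chr10:51490956-51496611 (plus) and Cd63 at chr10:128900989-128912822 (plus). Lilr4b, a close relative of Lilrb4a, ends 4252 bases before it. Of the 31-base stretches of the Lilrb4a transcripts, 25.5% to 47.8% also occur in Lilr4b (20.7% to 35.9% in the last 300 bases), so reads could be split between these 2 genes or dropped, and Lilrb4a counts are uncertain to an extent that the files do not give. RefSeq promoters of the GRCm38.p6 build were at hand for 5 of the 6. The 250 bases before the start are shown for Itgax and Cst7, which were found mostly in microglia-like nuclei, and for Cd9, which was broad. Capitals mark matches to the letters searched on both strands: GAGGAA (the core of the PU.1 site), TGANTCA (AP-1), TGTGGT (RUNX), CACGTG (the E-box bound by MITF and TFEB) and GGGCGG (GC box).
Itgax promoter, chr7:128129300-128129549, plus strand: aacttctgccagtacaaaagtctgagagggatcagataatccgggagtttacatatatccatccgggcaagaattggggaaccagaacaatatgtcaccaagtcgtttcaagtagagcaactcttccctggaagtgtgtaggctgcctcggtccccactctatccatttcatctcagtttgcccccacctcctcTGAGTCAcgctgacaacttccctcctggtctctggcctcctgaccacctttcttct
Cst7 promoter, chr2:150570165-150570414, plus strand: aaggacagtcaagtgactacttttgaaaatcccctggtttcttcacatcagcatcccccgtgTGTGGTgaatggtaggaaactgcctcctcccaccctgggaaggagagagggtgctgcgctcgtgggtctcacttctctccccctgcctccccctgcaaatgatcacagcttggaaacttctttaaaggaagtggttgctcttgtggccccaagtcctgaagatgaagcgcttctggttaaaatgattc
Cd9 promoter, chr6:125494761-125495010, minus strand: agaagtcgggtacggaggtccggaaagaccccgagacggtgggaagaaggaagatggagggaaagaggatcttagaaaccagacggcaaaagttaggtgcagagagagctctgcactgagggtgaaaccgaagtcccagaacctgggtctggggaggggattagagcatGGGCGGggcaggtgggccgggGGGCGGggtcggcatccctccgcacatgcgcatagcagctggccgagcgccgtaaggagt
The Itgax promoter held 1 AP-1 match, whose first base lies 56 bases before the start, and AP-1 letters occurred in 6.75% of the 32817 RefSeq promoters of the same length. The Cst7 promoter held 1 RUNX match 188 bases before the start (14.04% of all promoters). In the Cd9 promoter there were 2 GC boxes, at 81 and 60 bases (at least 1 was found in 32.7% of all promoters). Of the promoters not printed, Spp1 (chr5:104434861-104435110) held a RUNX match at 128 bases and a PU.1 match at 113, and Cd63 (chr10:128909095-128909344) held PU.1 matches at 244 and 59 bases. This Cd63 window lies inside the gene span given above, before a RefSeq start downstream of the first base of that span. PU.1 letters occurred in 23.3% of promoters, and the marked matches do not overlap each other. CACGTG, found in 6.02% of all promoters, was not among the letters of these 5 windows. A match is a run of letters and not a measured binding site.

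How well the genes were measured in nuclei differed widely. Microglia-like nuclei gave 11319 UMIs of Cd9, 5173 of Lilrb4a, 1346 of Itgax, 894 of Cd63, 777 of Cst7 and 118 of Spp1, over 6 libraries. With each nucleus thinned to 1000 UMIs, at least 1 UMI was found in 24.3% of microglia-like nuclei for Cd9 and in 10.8% for Lilrb4a. The same share was 3.25% for Itgax, 2.95% for Cd63, 2.34% for Cst7 and 0.237% for Spp1 (means of 6 libraries; 32 nuclei were too shallow to thin). Without thinning these shares were 52.9%, 24.0%, 10.2%, 9.49%, 7.33% and 0.739%. Oligodendrocyte-like nuclei, which should lack the myeloid genes, gave thinned shares of 0.0238% for Itgax, 0.0632% for Cst7 and 0.140% for Lilrb4a at a similar median depth (3024 to 4260 UMIs). Itgax, Cst7 and Lilrb4a in microglia-like nuclei thus stood well above the level in nuclei that should lack them, whereas Spp1 was too sparse for more than sums.

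Across cell types the 2 surface receptors were found mostly in microglia-like and border macrophage-like nuclei. Itgax averaged 38.6 ± 14.8 CPM in microglia-like nuclei (SD, n = 6 libraries), which held 92.1% of its UMIs among named cell types. Border macrophage-like nuclei, the macrophages of vessels and meninges, followed at 7.47 ± 5.81 CPM on only 13 UMIs, and committed oligodendrocyte precursor-like and endothelial-like nuclei had none. Lilrb4a was highest in border macrophage-like nuclei, at 295 ± 92.5 CPM, and second in microglia-like nuclei, at 142 ± 74.8, with overlap between the libraries of these 2 types. Its highest level elsewhere was 6.67 CPM, in fibroblast-like nuclei. The neighbour Lilr4b had the same order, with 48.6 ± 19.6 CPM in border macrophage-like and 7.64 ± 3.17 in microglia-like nuclei. The border macrophage-like cluster also held T cells: 57 of its 410 nuclei had at least 3 UMIs of T cell markers.

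Cst7 resembled Itgax in its distribution, with 22.3 ± 5.96 CPM and 83.0% of its UMIs in microglia-like nuclei and 4.58 CPM in border macrophage-like nuclei. Spp1 did not: pericyte and smooth muscle-like nuclei averaged 44.3 ± 47.5 CPM, with libraries from 10.3 to 138, and fibroblast-like nuclei 24.7 ± 5.14, while microglia-like nuclei were at 3.33 ± 3.02. Microglia-like nuclei held 27.2% of its UMIs and fibroblast-like nuclei 29.0%. No library overlapped between microglia-like nuclei and either of these other types, so Spp1 RNA was higher in pericyte and smooth muscle-like and in fibroblast-like nuclei. Endothelial-like nuclei, at 3.39 ± 5.06 CPM, overlapped microglia-like nuclei.

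The tetraspanins were broad. Cd9 was highest in committed oligodendrocyte precursor-like nuclei, at 473 ± 68.7 CPM, before microglia-like nuclei at 325 ± 56.1, oligodendrocyte-like nuclei at 137 ± 14.5 and oligodendrocyte precursor-like nuclei at 105 ± 12.2, and these 4 did not overlap between libraries. By number of UMIs, oligodendrocyte-like nuclei held 42.6% of Cd9 and microglia-like nuclei 31.3%. Neuron-like nuclei were lowest, at 12.6 CPM. For Cd63, astrocyte-like nuclei were highest, at 54.0 ± 9.64 CPM, before fibroblast-like at 37.1, pericyte and smooth muscle-like at 31.7 and endothelial-like at 29.1. Microglia-like nuclei were at 26.0 ± 3.40 and border macrophage-like at 25.3. Oligodendrocyte-like nuclei followed at 19.1, committed oligodendrocyte precursor-like at 17.99 and oligodendrocyte precursor-like at 10.48. Neighbours in that order overlapped between libraries, and only neuron-like nuclei, at 4.18 CPM, lay below their next neighbour without overlap. Types further apart could differ: astrocyte-like libraries were at 39.7 CPM or more and microglia-like ones at 30.2 or less. Oligodendrocyte-like nuclei held 36.1% of Cd63 UMIs, astrocyte-like nuclei 25.7% and microglia-like nuclei 15.2%.

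**Figure D1:**
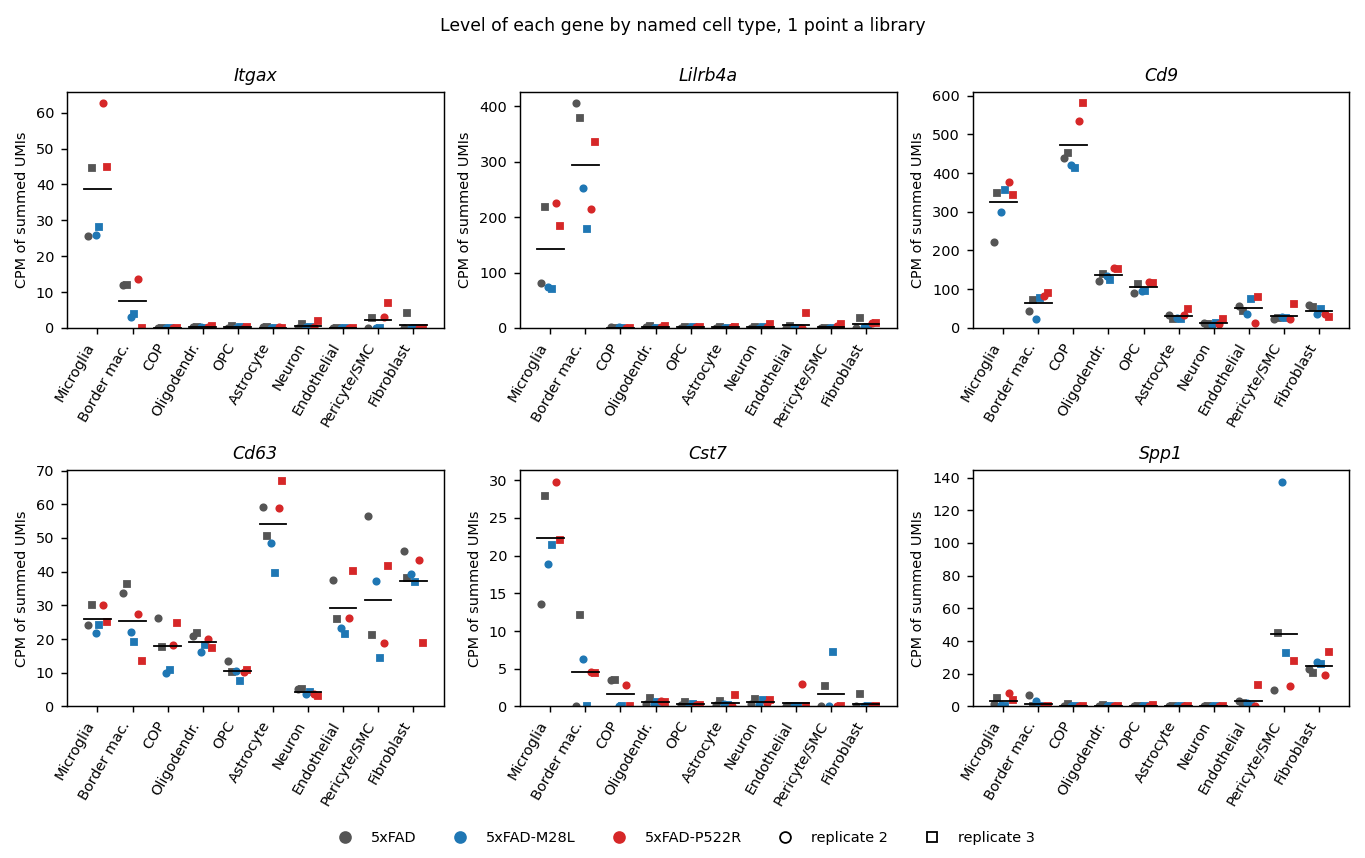
Level of each gene by cell type (CPM of summed UMIs). Points are the 6 libraries, coloured by group and shaped by replicate, and bars their means. Itgax and Cst7 peak in microglia-like nuclei at 38.6 and 22.3 CPM, Lilrb4a in border macrophage-like nuclei at 295, Cd9 in committed oligodendrocyte precursor-like nuclei at 473, Cd63 in astrocyte-like nuclei at 54.0 and Spp1 in pericyte and smooth muscle-like nuclei at 44.3.

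Microglia-like nuclei were clustered again with the member genes left out, and 4 of the 6 clusters could be named from markers that are not members. Cluster 0 was homeostatic-like (3200 nuclei), cluster 2 disease-associated-like (1435 nuclei, 15 of 16 markers higher than in the other clusters), cluster 3 interferon-responsive-like (658) and cluster 5 cycling-like (40). Cluster 1 (2583 nuclei, led by genes that include the chemokine genes Ccl4 and Ccl6 and the activation marker Cd83) stayed unnamed, as did cluster 4 (542), which had oligodendrocyte transcripts and a median of 7551 UMIs. Because the clusters were made from the same nuclei, levels between them are a description.

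Every matched gene was highest in cluster 2 among clusters 0 to 3. For the receptors, Lilrb4a averaged 6.56 CPM in cluster 0, 172 in cluster 1, 385 ± 111 in cluster 2 and 110 in cluster 3, and Itgax 3.51, 31.4, 141 ± 26.5 and 17.3 CPM in the same order. Cst7 was at 1.63, 27.7, 60.05 ± 14.2 and 26.6 CPM, and Spp1 at 0.536, 0.211, 10.6 ± 9.84 and 1.07. The tetraspanins rose least from cluster to cluster, Cd9 from 161 CPM in cluster 0 to 417, 586 ± 58.9 and 297 CPM, and Cd63 from 16.01 to 28.8, 42.5 ± 2.89 and 19.9.

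Cluster 2 supplied 73.7% of microglial Spp1 UMIs, 60.6% of Itgax, 51.6% of Lilrb4a, 46.5% of Cst7, 30.6% of Cd9 and 29.0% of Cd63. Lilrb4a and Cst7 were thus well above their homeostatic level in cluster 1 too, whereas Spp1 UMIs were mostly in cluster 2.

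**Figure D2:**
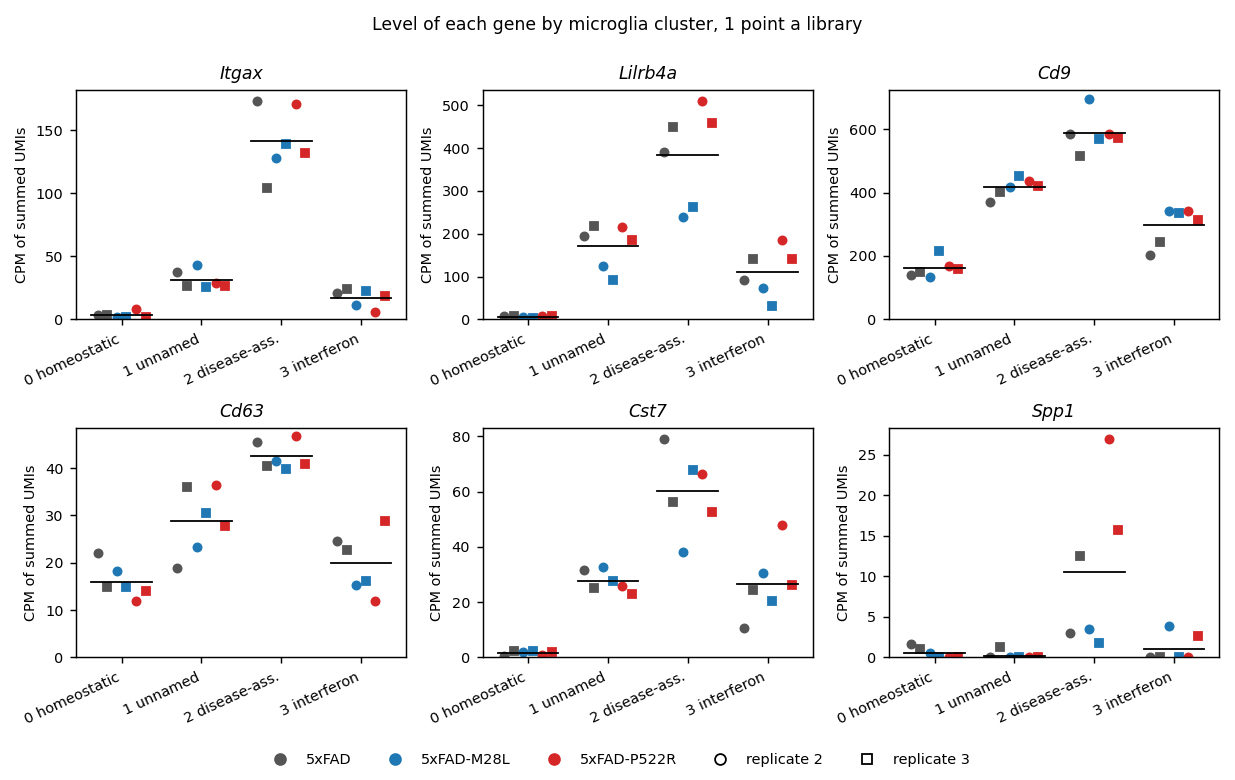
Level of each gene in microglia clusters 0 to 3 (CPM of summed UMIs). Points are libraries coloured by group and bars the mean of 6 libraries. Each gene is highest in cluster 2, from 10.6 CPM for Spp1 to 586 for Cd9, and in clusters 1 and 2 the 2 5xFAD-M28L libraries have the lowest Lilrb4a. How many of all genes share that order was not counted.

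Single nuclei rarely showed several of the genes at once. After thinning, the mean number of the 6 genes detected was 0.168 per nucleus in cluster 0, 0.532 in cluster 1, 0.959 in cluster 2 and 0.347 in cluster 3, and 4.04% of nuclei in cluster 2 had 3 or more. Over all microglia-like nuclei, Lilrb4a was found in 25.6% of 273 nuclei with Itgax and in 10.6% of those without it, with the same order in 6 of 6 libraries. Inside cluster 2 the shares were 33.8% and 32.9%. At this depth the pairing of Itgax and Lilrb4a over all nuclei was not seen within the cluster in which both are high.

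Genes whose levels ran most alike were found over 29 sums of library and cluster, among 9244 genes, by Pearson's r of log2(CPM + 10). These points share libraries and clusters, so the values are a description. Itgax was most like Gng12 (r = 0.97), a G protein gamma subunit, and Fam20c (0.92), a secretory pathway kinase. Cst7 was most like Myo5a (0.95), a myosin motor, and Cd9 most like Dgkz (0.97), a diacylglycerol kinase. Lilrb4a was most like Etl4 and Myo1e, and Cd63 most like Ercc6 with the lowest first r of the 5 genes (0.85). Spp1 was below the level required.

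The first comparison of groups asked how the genes follow the PLCG2 variants over all microglia-like nuclei. Levels are TMM-normalised CPM, given as replicates 2 and 3. Lilrb4a was at 79.5 and 216 in 5xFAD, 74.2 and 72.8 in 5xFAD-M28L and 218 and 191 in 5xFAD-P522R. Itgax was at 25.3 and 44.1 in 5xFAD, 26.0 and 28.8 in 5xFAD-M28L and 60.9 and 46.4 in 5xFAD-P522R. For both receptors the 2 5xFAD-P522R libraries lay above the 2 5xFAD-M28L libraries, and the 5xFAD libraries were far apart, with replicate 2 near 5xFAD-M28L and replicate 3 close to 5xFAD-P522R.

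Among the tetraspanins, Cd9 was at 221 and 346 CPM in 5xFAD, 301 and 366 in 5xFAD-M28L and 366 and 356 in 5xFAD-P522R. Cd63 was at 24.1 and 29.9, 22.0 and 24.9, and 29.2 and 26.0 CPM in the same order. Their groups were close together, with 5xFAD replicate 2 lowest for Cd9.

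Cst7 was at 13.4 and 27.6 CPM in 5xFAD, 19.0 and 21.9 in 5xFAD-M28L and 29.0 and 22.9 in 5xFAD-P522R. Spp1 was at 1.49 and 5.32, 0.873 and 0.187, and 7.74 and 4.23 CPM, which rest on 6 and 40, 4 and 1, and 31 and 36 UMIs. Both 5xFAD-M28L libraries were therefore lowest for Spp1, at 5 UMIs in all.

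**Figure D3:**
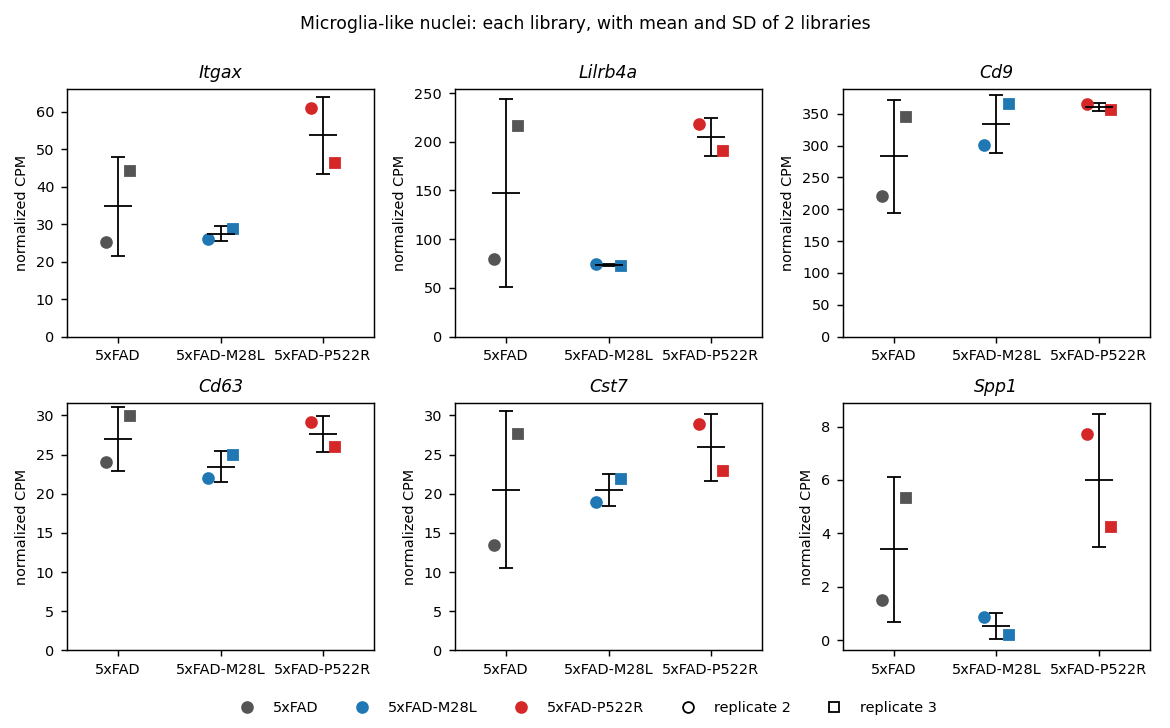
Normalised CPM of each gene in microglia-like nuclei by group. Points are the 2 libraries of a group, shaped by replicate, with the group mean and SD. Lilrb4a spans 72.8 to 74.2 in 5xFAD-M28L and 191 to 218 in 5xFAD-P522R, with 5xFAD at 79.5 and 216.

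No member passed the threshold in any of the 3 contrasts over all microglia-like nuclei (edgeR quasi-likelihood, adjusted p under 0.05), and the background was 0% of 13845 genes in each. At an unadjusted p under 0.05 there were 2 members of 6 for 5xFAD-M28L against 5xFAD (5.06% of all genes), 0 for 5xFAD-P522R against 5xFAD (11.4%) and 3 for 5xFAD-P522R against 5xFAD-M28L (13.9%). DESeq2 called 4, 57 and 270 genes and 1 member, Spp1 in 5xFAD-P522R against 5xFAD-M28L. The 3 contrasts share libraries and are given side by side, not as independent evidence.

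In 5xFAD-P522R against 5xFAD-M28L, 5 of 6 members did not overlap between groups and were higher in 5xFAD-P522R, as were 23.2% of all genes (23.1% were lower), and Cd9 overlapped. The log2 fold changes were 1.48 for Lilrb4a (SE 0.388, 95% interval 0.57 to 2.38, edgeR adjusted p = 0.183), 0.96 for Itgax (SE 0.262, interval 0.35 to 1.57, adjusted p = 0.192) and 3.45 for Spp1 (SE 0.840, interval 1.49 to 5.41, adjusted p = 0.173). Cst7 was at 0.33, Cd63 at 0.23 and Cd9 at 0.11, each with an SE of 0.17 to 0.32. The Lilrb4a difference passed in the fit of these 4 libraries alone (edgeR adjusted p = 0.0182), where the genes called are counted below. It did not pass in the main fit, with DESeq2 or with the replicate number as a block. With each library left out in turn it ranged from 1.38 to 1.57.

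In 5xFAD-M28L against 5xFAD, Lilrb4a and Spp1 were lower without overlap, as were 17.9% of all genes (18.5% were higher). Their log2 fold changes were -1.02 (SE 0.386, edgeR adjusted p = 0.895) and -2.81 (SE 0.879, adjusted p = 0.895). For Spp1, leaving out 5xFAD replicate 2 gave -3.34, and leaving out replicate 3 gave -1.52. Without 5xFAD replicate 2 the Lilrb4a value was -1.56, and without 5xFAD replicate 3 it was -0.11, each in a fit with a single 5xFAD library. The other 4 members lay between -0.37 and 0.23. In 5xFAD-P522R against 5xFAD, Itgax (0.59, SE 0.256, adjusted p = 0.441) and Cd9 (0.35, SE 0.200, adjusted p = 0.557) were higher without overlap, as were 21.3% of all genes (20.3% were lower), and Lilrb4a was at 0.45 (SE 0.374, adjusted p = 0.689). On CPM without TMM scaling, Cd9 overlapped between these groups, with 349 in 5xFAD replicate 3 and 343 in 5xFAD-P522R replicate 3, and Itgax was at 44.6 and 44.8 in the same libraries. Without 5xFAD replicate 2, Itgax was at 0.27, Cd9 at 0.061 and Lilrb4a at -0.081, and without 5xFAD replicate 3 they were at 1.07, 0.71 and 1.36. The size of these values, and the sign of the last, thus rested on 5xFAD replicate 2.

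The share of microglia-like nuclei in cluster 2 moved with these levels. It was 7.70% and 25.4% in 5xFAD, 5.46% and 8.48% in 5xFAD-M28L and 28.5% and 23.8% in 5xFAD-P522R, so it was high in the same 3 libraries as Lilrb4a. Endothelial markers, among them Flt1, which is also a leading gene of cluster 2, summed to 62.7 and 68.2 CPM in the 5xFAD-M28L microglia-like nuclei and to 109 to 242 in the other 4 libraries. Several sets set both 5xFAD-P522R libraries apart. Astrocyte markers summed to 507 and 459 CPM there and to 733 to 844 in the others, and oligodendrocyte precursor markers to 292 and 274 against 360 to 379. Oligodendrocyte markers summed to 1895 and 4240 CPM against 966 to 1390, neuron markers to 1061 and 1241 against 886 to 958, and committed precursor markers to 1203 and 1262 against 1139 to 1194. The microglial markers themselves were at 10060 and 8924 CPM in 5xFAD-P522R and at 10312 to 12336 in the others. Cluster 4, which had oligodendrocyte transcripts, held 18.7% of the microglia-like nuclei in 5xFAD-P522R replicate 3 and 6.09% in 5xFAD-P522R replicate 2. Its share was 1.47% to 3.63% in the other 4 libraries. Fits without cluster 4 are among the alternatives given below. The part of these transcripts in the results was not tested. With every library given the same mix of clusters, the ratio of 5xFAD-P522R to 5xFAD-M28L means fell from 1.995 to 1.16 for Itgax, from 1.29 to 1.06 for Cst7, from 1.19 to 0.984 for Cd63 and from 1.10 to 0.972 for Cd9. For Lilrb4a it went from 2.83 to 1.97, and for Spp1 from 11.5 to 6.21.

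Lilrb4a was lower in 5xFAD-M28L inside single microglia clusters, and it was the only member called there. Levels within a cluster were compared after the cell mix had been seen to differ, so this is a comparison chosen after looking at the data. In cluster 2, Lilrb4a was at 392 and 450 CPM in 5xFAD, 238 and 262 in 5xFAD-M28L and 510 and 458 in 5xFAD-P522R. In cluster 1 it was at 195 and 219, 125 and 91.6, and 216 and 185 CPM. Both 5xFAD-M28L libraries were below all 4 others in each of the 2 clusters, and here the 5xFAD libraries lay close together. How many of all genes were separated in this way was not counted inside any cluster.

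For 5xFAD-P522R against 5xFAD-M28L, the log2 fold change was 0.91 in cluster 2 (SE 0.144, edgeR adjusted p = 0.00157), where 0.431% of 9286 genes were called. It was 0.86 in cluster 1 (SE 0.141, adjusted p = 0.00243), where 0.335% of 11061 genes were called. For 5xFAD-M28L against 5xFAD, it was -0.95 in cluster 1 (SE 0.142, adjusted p = 0.00102; 0.407% of genes called) and -0.76 in cluster 2 (SE 0.149, adjusted p = 0.0136; 0.56%). Between 5xFAD-P522R and 5xFAD it was -0.09 in cluster 1 (SE 0.138, adjusted p = 0.934) and 0.15 in cluster 2 (SE 0.125, adjusted p = 0.981). The background there was 0.0362% and 0.0538% of genes.

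The call in cluster 2 for 5xFAD-P522R against 5xFAD-M28L held with each library left out in turn (0.84 to 1.01), with DESeq2 and under every other alternative run inside clusters. The call in cluster 1 did not hold once 5xFAD-P522R replicate 2 was left out (adjusted p = 0.075). For 5xFAD-M28L against 5xFAD, the call in cluster 1 was lost without 5xFAD replicate 3 (0.11), and that in cluster 2 without 5xFAD replicate 3 (0.24), 5xFAD-M28L replicate 2 (0.078) or 5xFAD-M28L replicate 3 (0.15). Cluster 2 held 63 and 123 nuclei in the 5xFAD-M28L libraries, against 104 to 454 in the other 4.

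The neighbour Lilr4b went the other way from Lilrb4a in cluster 2. It was at 15.2 and 24.6 CPM in 5xFAD, 48.4 and 29.5 in 5xFAD-M28L and 44.0 and 19.6 in 5xFAD-P522R, on 5 to 51 UMIs, so both 5xFAD-M28L libraries were above both 5xFAD libraries. Its log2 fold change was 0.69 for 5xFAD-M28L against 5xFAD (SE 0.434, edgeR adjusted p = 0.633) and -0.30 for 5xFAD-P522R against 5xFAD-M28L (SE 0.403, adjusted p = 0.900). Because reads could be split between the 2 genes, their UMIs were also summed. In cluster 2 the sum was at 0.80 for 5xFAD-P522R against 5xFAD-M28L (SE 0.142, edgeR adjusted p = 0.00455) and at -0.63 for 5xFAD-M28L against 5xFAD (SE 0.147, adjusted p = 0.0473). In cluster 1 the same contrasts were at 0.83 (adjusted p = 0.00302) and -0.93 (0.00108). The sum thus passed where Lilrb4a alone did, with smaller differences in cluster 2. Reads dropped by the counting are not covered by it.

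In the interferon-responsive-like cluster 3, Lilrb4a was at 91.0 and 142 CPM in 5xFAD, 72.6 and 30.3 in 5xFAD-M28L and 185 and 142 in 5xFAD-P522R. The 5xFAD-M28L libraries were again lowest. It passed for 5xFAD-P522R against 5xFAD-M28L (log2 1.59, SE 0.327, edgeR adjusted p = 0.0157; 0.235% of 7234 genes called), but not with DESeq2 (adjusted p = 1.0) or without either 5xFAD-P522R library or 5xFAD-M28L replicate 3 (0.12 to 0.36). The value for 5xFAD-M28L against 5xFAD was -1.22 (SE 0.315, adjusted p = 0.108; 0.249% called), and that for 5xFAD-P522R against 5xFAD was 0.36 (SE 0.297; 0.207% called). In the homeostatic-like cluster 0, the gene was low, at 3.47 to 8.21 CPM on 7 to 19 UMIs per library, and no contrast passed (0.0175%, 0.0701% and 0.0351% of genes called for 5xFAD-M28L and 5xFAD-P522R against 5xFAD and for 5xFAD-P522R against 5xFAD-M28L). Whether the difference varies between clusters was not tested.

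No other member was called within clusters, and the members were not tested against each other. In cluster 2, Itgax was at 173 and 104 CPM in 5xFAD, 128 and 139 in 5xFAD-M28L and 171 and 132 in 5xFAD-P522R, and the log2 fold change of 5xFAD-P522R against 5xFAD-M28L was 0.13 (SE 0.218, edgeR adjusted p = 0.929). All 3 groups overlapped. Cst7 was at 0.02 (SE 0.284), Cd63 at 0.08 (SE 0.298) and Cd9 at -0.14 (SE 0.133) for the same contrast. Spp1 had the same signs as Lilrb4a in this cluster, at 3.06 (SE 0.834, unadjusted p = 0.00113, adjusted p = 0.121) for the same contrast and at -2.14 (SE 0.9504, adjusted p = 0.428) for 5xFAD-M28L against 5xFAD. It had 1 and 1 UMIs in 5xFAD-M28L, 30 and 28 in 5xFAD-P522R and 1 and 26 in 5xFAD. The 3 libraries with 1 UMI held 289317 (5xFAD-M28L replicate 2), 576312 (5xFAD-M28L replicate 3) and 329059 UMIs (5xFAD replicate 2) in cluster 2, against 1113115 to 2077288 in the other 3. A count of 0 there would allow up to 5.21 to 10.4 CPM, and the other 3 libraries were at 12.5 to 27.0 CPM, so a single UMI sets a weak limit.

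**Figure D4:**
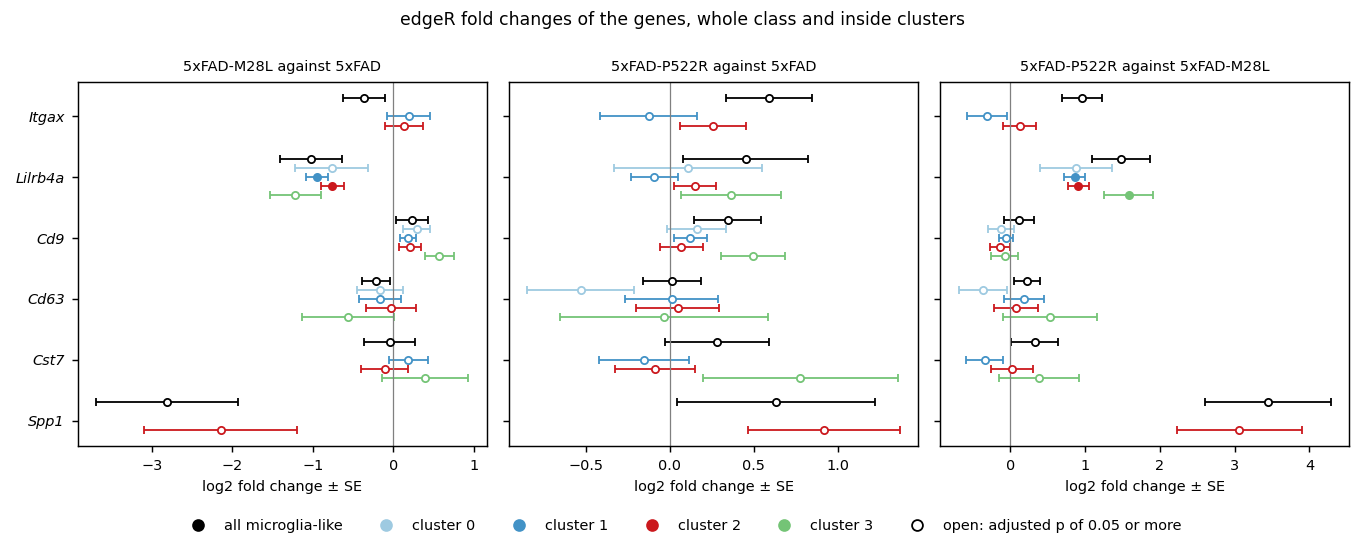
Log2 fold changes (points) and SE (bars) of the members over all microglia-like nuclei and in clusters 0 to 3, by contrast; filled points had an adjusted p under 0.05, and the panels have different x ranges. The filled points are Lilrb4a at -0.95 and -0.76 in clusters 1 and 2 for 5xFAD-M28L against 5xFAD, and at 0.86, 0.91 and 1.59 in clusters 1 to 3 for 5xFAD-P522R against 5xFAD-M28L.

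Nuclei could be split into Xist-positive (Xist and no Y-linked transcript) and Y-positive ones. Xist-positive nuclei made up 46.8% and 69.1% of sexed microglia-like nuclei in 5xFAD, 48.1% and 61.9% in 5xFAD-M28L and 74.9% and 71.1% in 5xFAD-P522R, so the mix of sexes moved with the level of Lilrb4a and with the share of cluster 2. The part of that mix in the results over all microglia-like nuclei was not tested beyond the values below. Inside cluster 2, Lilrb4a CPM was lowest in 5xFAD-M28L in both classes. Xist-positive nuclei had 229 and 240 CPM in 5xFAD-M28L, 531 and 507 in 5xFAD-P522R and 445 in 5xFAD replicate 3, with only 2 nuclei in 5xFAD replicate 2. Y-positive nuclei had 263 and 225 CPM in 5xFAD-M28L, on 22 and 16 UMIs, 370 and 298 in 5xFAD-P522R and 408 and 442 in 5xFAD. In each class the 5xFAD-M28L libraries were lowest.

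Over all microglia-like nuclei, Lilrb4a was at 14.96 CPM in Xist-positive and 116 in Y-positive nuclei of 5xFAD replicate 2, and at 213 and 228 in 5xFAD replicate 3. The pairs were 84.0 and 74.7, and 79.7 and 64.8 CPM in 5xFAD-M28L, and 271 and 132, and 243 and 123 in 5xFAD-P522R. Xist-positive nuclei were thus higher in the 4 variant libraries and lower in the 2 5xFAD libraries. Itgax had the same order, from 3.74 against 43.5 CPM in 5xFAD replicate 2 to 81.1 against 30.8 in 5xFAD-P522R replicate 2.

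None of the 5 members with enough UMIs was called between the sex classes (edgeR with the library as a block; 0.065% of 10763 genes called), and the largest value was 0.24 for Cd9 (SE 0.196, adjusted p = 0.785). None was called for a difference of a group contrast between the classes either. The nearest was Cd9 for 5xFAD-M28L against 5xFAD, which was 1.33 higher in Xist-positive nuclei on the log2 scale (SE 0.275, edgeR adjusted p = 0.0542; 0.623% called). Lilrb4a differed by 1.96 between the classes for 5xFAD-P522R against 5xFAD (SE 0.516, adjusted p = 0.270; 0% called). Such calls depended on the 5xFAD library kept: leaving out either one gave some, in fits with a single library in that group. The share of all genes called in those fits is not given here, so the members cannot be set against it. In Y-positive nuclei alone, Lilrb4a was at -1.32 for 5xFAD-M28L against 5xFAD (edgeR adjusted p = 0.0381), in a fit whose genes called are counted below.

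**Figure D5:**
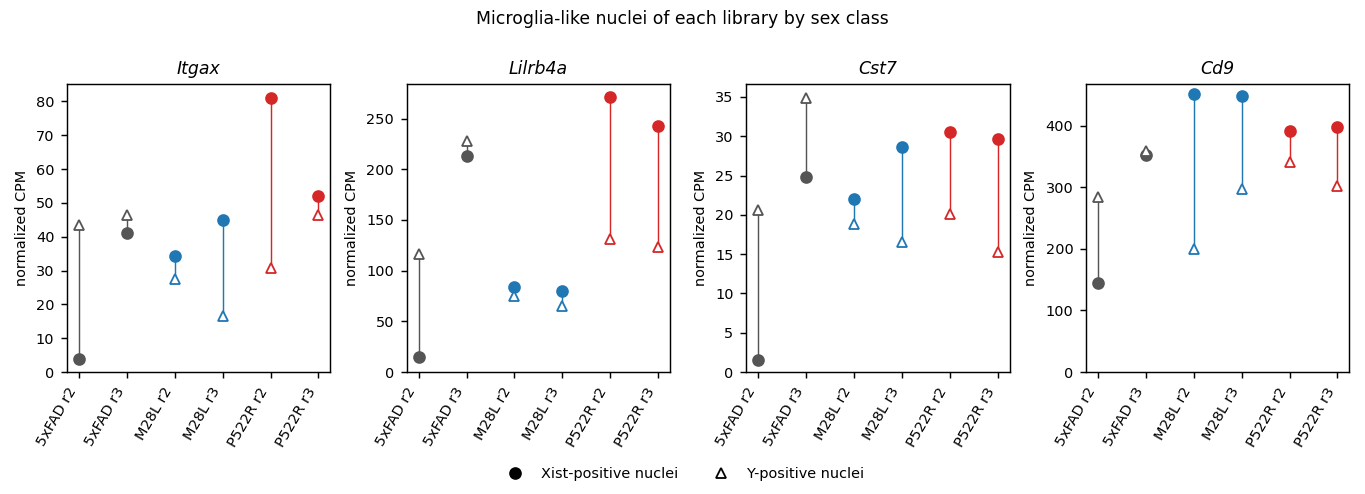
Normalised CPM of Itgax, Lilrb4a, Cst7 and Cd9 in Xist-positive and Y-positive microglia-like nuclei of each library; lines join the classes of 1 library, coloured by group. In 5xFAD replicate 2, Lilrb4a is at 14.96 in Xist-positive and 116 in Y-positive nuclei, and in the 4 variant libraries the Xist-positive class is the higher one.

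Outside microglia, there were 25 pairs of a member and a cell type among 9 other cell types with enough UMIs, and no member was called in any contrast in the fit of all 6 libraries. Single values were nevertheless as large as those in microglia, with wide errors, such as 2.38 for Lilrb4a in neuron-like nuclei for 5xFAD-P522R against 5xFAD (SE 1.26, edgeR adjusted p = 0.548). The share of genes called was 0% in most of these fits. It was 0.0163%, 0.114% and 0.147% in pericyte and smooth muscle-like nuclei (in the order of contrasts used above), 0.0244%, 0.0244% and 0% in endothelial-like nuclei and 0%, 0.0326% and 0.0195% in oligodendrocyte-like nuclei. For 5xFAD-P522R against 5xFAD alone it was 0.0217% in astrocyte-like and 0.0359% in neuron-like nuclei. In border macrophage-like nuclei, Lilrb4a was at 406 and 379 CPM in 5xFAD, 253 and 179 in 5xFAD-M28L and 215 and 337 in 5xFAD-P522R. Both 5xFAD-M28L libraries were below both 5xFAD libraries, with a log2 fold change of -0.86 (SE 0.274, edgeR unadjusted p = 0.0107, adjusted p = 0.999), and 5xFAD-P522R overlapped 5xFAD-M28L. How many of all genes were separated so in these nuclei was not counted. Oligodendrocyte-like nuclei had 0.615 CPM of Lilrb4a in 5xFAD-M28L and 2.29 in 5xFAD-P522R (log2 1.90, SE 0.662, edgeR adjusted p = 0.636), and 5xFAD-M28L against 5xFAD was at -1.55 (SE 0.687, adjusted p = 0.397). With the replicate number as a block, Lilrb4a was called there in both of these contrasts. These are the nuclei whose share with a UMI was read above as background.

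For the tetraspanins, Cd9 in oligodendrocyte-like nuclei was 0.23 higher on the log2 scale in 5xFAD-P522R than in 5xFAD-M28L (SE 0.0887, edgeR adjusted p = 0.678), and Cd63 in astrocyte-like nuclei 0.39 higher (SE 0.152, adjusted p = 0.572). Spp1 in pericyte and smooth muscle-like nuclei was at 10.3 and 45.0 CPM in 5xFAD, 138 and 32.5 in 5xFAD-M28L and 12.6 and 27.8 in 5xFAD-P522R, on 4 to 48 UMIs per library. A single 5xFAD-M28L library stood above the rest, and 5xFAD-P522R against 5xFAD-M28L was at -2.29 (SE 0.749, edgeR adjusted p = 0.399). This passed without 5xFAD replicate 2 (-2.30, adjusted p = 0.0152; 1.15% of genes called) and without 5xFAD replicate 3 (-2.32, adjusted p = 0.0233; 1.09%). For 5xFAD-M28L against 5xFAD it was at 1.62 (SE 0.616, adjusted p = 1.0).

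Genes of the same pathways were read from lists of partners. No listed gene passed in any contrast over all microglia-like nuclei, so counts and medians are given beside those of all genes, for which 49.1% to 51.3% of log2 fold changes were positive and the medians were within 0.01 of 0. In 5xFAD-P522R against 5xFAD-M28L, the members were positive in 6 of 6 with a median of 0.64. Other genes of the later disease-associated stage, such as Cadm1, an adhesion molecule (0.04, SE 0.127), and Ank, a transporter of pyrophosphate (0.77, SE 0.297, edgeR adjusted p = 0.311), were positive in 19 of 21 with a median of 0.40, and 7 had an unadjusted p under 0.05. Earlier-stage genes were positive in 6 of 9 (median 0.11), with the lysosomal proteases Ctsd and Ctsb at 0.11 and 0.33 (SE 0.181 and 0.277) and the lipid carrier Apoe at 0.37 (SE 0.171). All 17 homeostatic genes were negative (median -0.42), and 13 had an unadjusted p under 0.05, such as the TGF-beta receptor gene Tgfbr1 at -0.30 (SE 0.102) and the efferocytosis receptor gene Mertk at -0.48 (SE 0.0907, edgeR adjusted p = 0.172).

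In 5xFAD-P522R against 5xFAD, the corresponding counts were 6 of 6 members (median 0.40), 19 of 21 later-stage genes (0.32), 6 of 9 earlier-stage genes (0.12) and 0 of 17 homeostatic genes (-0.24). In 5xFAD-M28L against 5xFAD, they were 1 of 6 members (-0.29), 7 of 21 later-stage genes (-0.08), 4 of 9 earlier-stage genes (-0.04) and 15 of 17 homeostatic genes (0.20).

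Both sets of counts against 5xFAD depended on which 5xFAD library was kept. For 5xFAD-P522R against 5xFAD without 5xFAD replicate 2, 3 of 6 members (median -0.010), 12 of 22 later-stage genes (0.059), 4 of 9 earlier-stage genes (-0.022) and 6 of 17 homeostatic genes (-0.010) were positive, near the 51.7% of all genes. Without 5xFAD replicate 3 the members were positive in 6 of 6 (1.001) and the later-stage genes in 20 of 21 (0.79). For 5xFAD-M28L against 5xFAD, the members were positive in 0 of 6 (-0.56) and the later-stage genes in 3 of 22 (-0.32) without 5xFAD replicate 2, and in 3 of 6 (0.037) and 16 of 21 (0.31) without 5xFAD replicate 3.

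The sex classes also differed in these counts, and the mix of sexes moved with the groups. For 5xFAD-P522R against 5xFAD, the members were positive in 1 of 6 in Y-positive nuclei (median -0.15; Spp1 was the positive one) and in 5 of 5 in Xist-positive nuclei (0.91), and the later-stage genes in 7 of 21 and 20 of 21. For 5xFAD-P522R against 5xFAD-M28L, the members were positive in 5 of 6 (0.63) and 4 of 5 (0.23), and no homeostatic gene was positive in either class. These splits were chosen after the counts were seen. The Xist-positive 5xFAD nuclei include those of 5xFAD replicate 2, which lay mostly in the homeostatic cluster. In them Lilrb4a was at 14.96 CPM and Itgax at 3.74, against 213 and 41.2 in Xist-positive nuclei of 5xFAD replicate 3. The part of these nuclei in the Xist-positive counts against 5xFAD was not tested.

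The partners of the members were counted the same way. Integrin chains and CD44 were listed for the partners of Itgax and the receptors of Spp1, and the list also holds other chains. These genes were positive in 6 of 11 in 5xFAD-P522R against 5xFAD-M28L (median 0.04). The most abundant of the list, Itgb5 and Itgam, were at -0.42 and -0.29 (SE 0.0863 and 0.127, edgeR adjusted p = 0.172 and 0.365). In the other 2 contrasts this list had 6 and 5 positive of 11 (medians 0.03 and -0.07 for 5xFAD-M28L and 5xFAD-P522R against 5xFAD). Cathepsins, legumain and other cystatins, the protease system of Cst7, were positive in 5 of 12 in each of the 3 contrasts (medians -0.04, -0.14 and -0.12, with 5xFAD-P522R against 5xFAD-M28L last, where Lgmn, legumain, was at -0.36 with an SE of 0.0900). Other tetraspanins were positive in 10, 7 and 7 of 18 (medians 0.05, -0.07 and -0.11). The LILR and PIR family with its phosphatases was positive in 3, 3 and 2 of 6 (medians 0.06, -0.01 and -0.19), and Inpp5d, the phosphatase SHIP1 recruited by inhibitory receptors, was at -0.47 for 5xFAD-P522R against 5xFAD-M28L (SE 0.0937, edgeR adjusted p = 0.172).

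Signalling genes of dectin-1, the receptor encoded by Clec7a, were positive in 10 of 12 in 5xFAD-M28L against 5xFAD (median 0.17), 5 of 12 in 5xFAD-P522R against 5xFAD (-0.04) and 1 of 12 in 5xFAD-P522R against 5xFAD-M28L (-0.23), so this list lay far from the share of all genes in the first and the last. The homeostatic genes did so too, with 15 and 0 of 17 positive in those 2 contrasts, so this was not particular to the dectin-1 list. Without 5xFAD replicate 2 the first 2 dectin-1 counts were 10 (0.28) and 7 of 12 (0.030). Among the other partner lists, leaving out 5xFAD replicate 2 gave 5 and 3 of 6 for the LILR and PIR family, 13 and 11 of 19 for the tetraspanins, 7 and 4 of 12 for the protease system of Cst7 and 6 and 7 of 12 for the integrin chains, for 5xFAD-M28L and 5xFAD-P522R against 5xFAD. Plcg2 itself was at -0.24 in the last contrast (SE 0.116, edgeR adjusted p = 0.426). The neighbour Lilr4b was at -0.44, 0.36 and 0.80 in the 3 contrasts, with the same signs as Lilrb4a over all microglia-like nuclei but not in cluster 2 (edgeR adjusted p = 0.906, 0.756 and 0.417).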

How the data were processed

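For each of the 6 libraries, the values deposited by the authors are whole-number UMI counts (genes by nuclei), not normalised. Per the submitters' processing notes, Cell Ranger 6.1.2 and mm10 were used, and per the file headers 5xFAD-P522R replicate 3 was made with version 5.0.1. The treatment of intronic reads is not given in the sources used here. The smallest barcode total was 500 to 502 UMIs, so barcodes had been selected before deposit.

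The filter on nuclei asked for 500 or more UMIs, 300 or more genes and no more than 5% mitochondrial UMIs, and 62651 passed. Scrublet (scanpy 1.11.5, expected rate 0.08, 1 common threshold of 0.311 because the automatic one worked in 4 libraries) called 2566 doublets, which were removed after clustering. Leiden clustering (2000 variable genes without the members, 30 components, resolution 1) gave 30 clusters, named from marker lists, with 5 left unnamed (6904 nuclei). Microglia-like nuclei were clustered again (1000 genes, 15 components, resolution 0.5). The bounds for naming were set after looking at clusters.

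Sums of UMIs for each library within a cell type or cluster were tested with edgeR 4.0.16 under R 4.3.3. Low genes were removed by filterByExpr (minimum count 10), libraries were scaled by TMM, and a two-sided quasi-likelihood test was run with all 6 libraries in 1 fit and no replicate term. Benjamini-Hochberg adjustment covered all genes tested in a contrast, and 0.05 was the threshold. Levels by cell type and cluster are CPM without TMM. Intervals cover the spread between libraries. Steps were tested on simulated data. The named genes are the 7 members, up to 3 genes per partner list with the largest mean level in microglia-like nuclei, and up to 5 genes most like each member. The members, lists and tests were chosen with earlier results of these data known. Alternatives were DESeq2 1.42.0, RLE size factors, other filters, nuclei, clusterings and sex classes, a replicate block, each library left out and, after the data were seen, Lilrb4a and Lilr4b UMIs summed.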

Additional observations from a re-analysis of the deposited data

Results flagged for a closer look

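The fold changes of Spp1 had different signs in different cell types. For 5xFAD-M28L against 5xFAD its log2 fold change was -2.81 (SE 0.879) in microglia-like and 0.29 (SE 0.351) in fibroblast-like nuclei. For 5xFAD-P522R against 5xFAD-M28L it was 3.45 (SE 0.840) in microglia-like and -2.29 (SE 0.749) in pericyte and smooth muscle-like nuclei. In each case both libraries of 1 group lay above both of the other in one cell type and below them in the other. How many of all genes do so was not counted. The microglial values rest on 5 UMIs in 5xFAD-M28L, and the vascular one on 48 UMIs in a single library. Cd63 was at 0.23 (SE 0.173) for 5xFAD-P522R against 5xFAD-M28L in microglia-like nuclei and at -0.27 (SE 0.237) in neuron-like nuclei. None of these Spp1 and Cd63 values passed the threshold in the main fits. The differences between cell types were not tested.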

How the results depend on the processing

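Of 407 alternative values for members over all microglia-like nuclei, 351 kept their direction and their side of the threshold, 18 came to pass it and 38 changed sign. Of 108 for Lilrb4a inside clusters 1 to 3, the counts were 92, 5 and 2, and 9 lost the call. DESeq2 called 4, 57 and 270 genes for 5xFAD-M28L against 5xFAD, 5xFAD-P522R against 5xFAD and 5xFAD-P522R against 5xFAD-M28L, where the main fit called 0, and 1 member in the last. With no filter on low counts there were 139, 1124 and 1249 genes and 2, 2 and 3 members. The fit of only the 4 libraries compared called 15 genes and 1 member in the last contrast, and keeping doublets 1 gene in the first. Y-positive nuclei alone gave 22, 248 and 490 genes, and 1 member in the first contrast. Without cluster 4 there were 1, 3 and 1 genes, and without the Xist-positive nuclei of 5xFAD replicate 2 there were 10 in the last. Cluster 0 alone gave 2, 8 and 4 genes, cluster 1 gave 45, 4 and 37, cluster 2 gave 52, 5 and 40, and cluster 3 gave 18, 15 and 17. In these, 1 member (Lilrb4a) was called in clusters 1 and 2 in the first contrast and in clusters 1, 2 and 3 in the last. Leaving out each library in turn gave 0 to 8, 0 to 542 and 0 to 638 genes, and 0 to 1, 0 and 0 to 1 members. The counts of 542 and 638 came without 5xFAD-P522R replicate 2. Causes were not tested.

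In 5xFAD-M28L against 5xFAD, Itgax was at 0.61 and Cst7 at 0.69 in Xist-positive nuclei, Cd9 at -0.39 in Y-positive nuclei, Itgax at 0.19 and Cst7 at 0.19 in cluster 1, Itgax at 0.13 in cluster 2 and Cst7 at 0.39 in cluster 3. In 5xFAD-P522R against 5xFAD, Y-positive nuclei gave Itgax -0.16, Cst7 -0.70, Cd9 -0.0026, Lilrb4a -0.44 and Cd63 -0.13. Cd63 was at -0.021 with doublets kept, -0.0091 without the Xist-positive nuclei of 5xFAD replicate 2, -0.53 in cluster 0 and -0.032 in cluster 3. Itgax was at -0.13, Cst7 at -0.15 and Lilrb4a at -0.092 in cluster 1, and Cst7 at -0.089 in cluster 2. In 5xFAD-P522R against 5xFAD-M28L, Cd9 was at -0.19 in Xist-positive nuclei and at -0.13, -0.059, -0.14 and -0.076 in clusters 0 to 3. Cd63 was at -0.37 in cluster 0, Itgax at -0.31 and Cst7 at -0.34 in cluster 1, and Cst7 at -0.025 in Y-positive nuclei. With at least 2 UMIs to assign a sex class, Xist-positive against Y-positive gave -0.011 for Cst7 and -0.014 for Cd63.

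With each library left out, 5xFAD-M28L against 5xFAD ranged from -0.68 to 0.11 for Itgax, -0.43 to 0.61 for Cst7 and -0.049 to 0.60 for Cd9. For 5xFAD-P522R against 5xFAD the ranges were -0.11 to 0.93 for Cst7, -0.081 to 1.36 for Lilrb4a and -0.12 to 0.19 for Cd63, and for 5xFAD-P522R against 5xFAD-M28L -0.024 to 0.26 for Cd9. In cluster 1, Lilrb4a ranged from -0.18 to 0.021 for 5xFAD-P522R against 5xFAD. Between the sex classes the ranges were -0.051 to 0.52 for Itgax, -0.13 to 0.34 for Cst7, -0.11 to 0.48 for Lilrb4a and -0.058 to 0.072 for Cd63. The library left out also decided whether members were called between classes (Cd9) or for the difference of contrasts. The same held in other cell types (Spp1 in pericyte and smooth muscle-like nuclei).

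Replicate numbers were shared by the groups. Deviations of same-numbered libraries correlated at 0.30, 0.15 and 0.20 over genes, with 2 pairs per contrast, and the labels do not say what the number marks. A replicate block called 1, 82 and 246 genes in the 3 contrasts, no member in microglia-like nuclei, and, in other cell types, Lilrb4a in oligodendrocyte-like nuclei in 2 tests (-1.48 for 5xFAD-M28L against 5xFAD, edgeR adjusted p = 0.0485, with 6.37% of genes called, and 1.89 for 5xFAD-P522R against 5xFAD-M28L, adjusted p = 0.0326, with 1.33% called).

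Shares of microglia-like nuclei with a UMI were 10.2% (Itgax), 7.33% (Cst7), 0.739% (Spp1), 52.9% (Cd9), 24.0% (Lilrb4a) and 9.49% (Cd63) without thinning, since they follow depth. With 2 libraries per group, 5xFAD replicates that differ and few Spp1 UMIs, moderate differences could not be told from the spread between libraries.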
